A study of Mus musculus with 24 samples.

Results

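The constant distal loci are places away from annotated promoters where ARID1B, FOXP1, and TCF7L2 all had a ChIP-seq peak in embryonic mouse cortex at E15.5 and again at E18.5, days of gestation. Peaks of the 3 transcriptional regulators (TRs) on chromosomes 1 to 19 were kept if they stayed clear of the 2000 bp before every transcription start site (TSS) in GENCODE vM21, and were merged into loci wherever they overlapped, separately for each stage. Members were then chosen by called peaks alone: a locus with all 3 TRs at E15.5 was taken if it overlapped a locus with all 3 at E18.5. This left 4708 of 64694 distal loci in the coordinates of E15.5, and 4709 of 61492 in those of E18.5. Of the 11326 E15.5 distal loci with all 3 TRs, 41.6% (95% Wilson interval 40.7% to 42.5%) were constant, and the other 6618 are called E15.5-only loci below. Of the 6214 such loci at E18.5, the other 1505 are called E18.5-only loci.

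The study profiled autism-associated TRs in developing neocortex by ChIP-seq, in which an antibody enriches the chromatin fragments that a protein sits on. The 24 libraries analysed here came from dissected cortex of wild-type (WT) embryos on a CD1 background, at E15.5 or E18.5, with no treatment. For each TR and stage there were 2 biological replicates of the ChIP and 2 of the matched input, 12 ChIP and 12 input libraries in all. The labels call the third target TCF4, and the study's antibody list calls it TCF7L2, the name used here. TCF4 is an alias of TCF7L2 but also the symbol of a bHLH gene whose protein reads E-boxes, and the antibody's target was not tested here. Whole cortex holds progenitors, neurons, and other cells together, so a peak shows that a place was enriched in at least some cells, not in which ones.

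There are 6 peak lists, 1 per TR and stage, so no spread between replicates is known. Per the study's methods the reads of 2 replicates were merged for the final calling, but each list is attached to the sample of replicate 1, and the lists are taken here to be the merged ones. Intervals therefore cover counting error only, neighboring loci are not independent, and no p-value is given. Depth differed between the lists. For the FOXP1 list at E18.5, the less deep of ChIP and input held 26.3 M reads, as recovered from the list's own values, and 24890 peaks were called. In that list 1 ChIP read counted as 0.561 after scaling, so the less deep library was the input and the ChIP was deeper. In the other 5 lists the less deep library held 57.3 to 80.7 M reads, and 33042 to 71442 peaks were called. Which loci counted as constant went with this difference. Among the E15.5-only loci, 81.8% (80.8% to 82.7%) lacked an E18.5 distal peak of FOXP1 and of no other TR, while 89.8% had an ARID1B peak and 90.7% a TCF7L2 peak at E18.5. Among the E18.5-only loci, 71.6% (69.2% to 73.8%) lacked TCF7L2 alone at E15.5, the shortest list of that stage. Constant against E15.5-only is therefore largely a split by whether FOXP1 reached a peak call in the shallowest list, and depth and stage cannot be told apart in it. With each list cut to its strongest 24526 peaks, the length of the shortest, 2360 loci were constant, and with only peaks of −log10 p of 15 or more, 486 were.

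Promoter-distal places where several regulators meet are often enhancers, stretches of DNA that raise the transcription of a gene over a distance by binding sequence-specific factors. ARID1B belongs to the BAF complex, which moves and ejects nucleosomes and reads no strict DNA motif. FOXP1 is a forkhead factor and TCF7L2 a TCF/LEF factor that acts with beta-catenin in Wnt signaling, and both read short DNA motifs. Other short motifs mark who else may read such a place. E-boxes are read by basic helix-loop-helix (bHLH) factors such as the neuronal NEUROD proteins, GGGCGG by KLF and SP factors, the X-box by RFX factors, and the CTCF core by CTCF, a protein of chromatin loop anchors.

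The 10 stretches printed next show the motifs on which the sequence comparison turns, 2 for each of 5 motifs. Each pair comes from the constant loci that hold that motif near the strongest E15.5 summit and rank highest by their lowest percentile over the 6 lists. Each is 80 bases of the plus strand of GRCm38 (mm10), from the RefSeq sequence of GRCm38.p6, with the copy of the motif nearest to that summit in capitals, and the gene named is the nearest protein-coding gene by TSS. Motifs were searched on both strands, so that the E-box CAGATG is printed as CATCTG where it lies on the minus strand. The Kcnq3 and Gpr84 stretches hold a further copy of their motif in lower case. A match is a description of the letters and not a measured binding site. The CTCF core pair follows.
Intergenic, Chd2, chr7:73618482-73618561: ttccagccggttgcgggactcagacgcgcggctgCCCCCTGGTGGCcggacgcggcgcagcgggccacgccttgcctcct
Intron, Nuak1, chr10:84438171-84438250: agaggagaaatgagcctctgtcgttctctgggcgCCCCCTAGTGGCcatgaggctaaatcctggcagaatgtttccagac
The pair with the E-box CAGATG, the form preferred by NEUROD proteins, stands in introns of 2 of the strongest loci.
Intron, Kcnq3, chr15:66239373-66239452: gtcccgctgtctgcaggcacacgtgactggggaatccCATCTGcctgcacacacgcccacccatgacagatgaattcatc
Intron, Btbd9, chr17:30497721-30497800: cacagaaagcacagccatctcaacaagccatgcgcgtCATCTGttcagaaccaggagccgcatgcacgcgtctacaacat
The pair with the E-box CAGCTG, read by class I and class II bHLH factors, is next.
Intergenic, Tmem161b, chr13:84348233-84348312: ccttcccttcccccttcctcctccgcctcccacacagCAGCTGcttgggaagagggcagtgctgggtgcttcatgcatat
Exon, Wdr95, chr5:149489142-149489221: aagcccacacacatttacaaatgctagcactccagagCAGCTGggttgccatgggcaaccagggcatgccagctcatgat
The pair with an RFX X-box, a long inverted repeat, is next.
Intergenic, Tob1, chr11:94160603-94160682: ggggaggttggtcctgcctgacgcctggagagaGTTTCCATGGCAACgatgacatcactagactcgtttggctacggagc
Intron, Cdk5r1, chr11:80504213-80504292: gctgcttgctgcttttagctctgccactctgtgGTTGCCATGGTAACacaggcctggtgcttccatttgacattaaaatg
The pair with the KLF/SP motif GGGCGG lies in GC-rich sequence.
Intron, Gpr84, chr15:103305471-103305550: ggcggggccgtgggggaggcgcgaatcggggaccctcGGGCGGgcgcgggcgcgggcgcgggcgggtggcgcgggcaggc
Exon, Cstad, chr2:30658625-30658704: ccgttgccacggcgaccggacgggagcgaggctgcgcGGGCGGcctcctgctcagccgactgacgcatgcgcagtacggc

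The motif lies within 100 bp of the strongest E15.5 summit by choice, and the other summits of these loci lay up to 168 bp from it. In the CTCF core locus 76215 bp upstream of Chd2, a chromatin remodeler gene associated with autism, the FOXP1 summit of E15.5 was 13 bp from the center of the core and the ARID1B summit 104 bp. Fold enrichment compares the reads at a summit with the background, with 1 added to each. Here ARID1B stood at 7.75 and 9.40 at E15.5 and E18.5, FOXP1 at 24.8 and 14.4, and TCF7L2 at 13.6 and 16.1. FOXP1 was the highest TR at E15.5 and TCF7L2 at E18.5. In the Btbd9 locus with CAGATG the order was another, with ARID1B highest at both stages. There ARID1B went from 23.2 to 29.0, FOXP1 from 16.1 to 9.98, and TCF7L2 from 10.99 to 13.1, and the ARID1B summits lay 53 and 12 bp from the E-box.

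The constant loci were long, and fewer of them lay in genes. Their median length was 1085 bp (quartiles 807 and 1494), against 827 bp for E15.5-only loci and 366 bp for all other distal loci, and together they covered 5.82 Mb. Length bears on the rule, since loci are unions of peaks and a longer locus has more room for an overlap, so it is given as a description. By the position of the strongest E15.5 summit, 47.9% were intergenic, 43.9% intronic, and 8.22% exonic, against 38.8%, 54.4%, and 6.81% of E15.5-only loci. The share in a protein-coding gene was 44.9%, which differed from E15.5-only loci by −9.06 percentage points (95% Newcombe interval −10.9 to −7.19), from other distal loci by −9.17 points (−10.6 to −7.68), and from E18.5-only loci by −9.84 points (−12.7 to −6.94).

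Distance to genes differed less. The median distance from the locus to the nearest TSS of any annotated transcript was 12500 bp (quartiles 5146 and 28416), against 13212 bp for E15.5-only and 14634 bp for other distal loci. To the nearest protein-coding TSS it was 24084 bp, against 27514 and 32203 bp. The order against single-stage loci was the reverse at E18.5, where the medians were 12474 bp in constant and 10082 bp in E18.5-only loci, and 24257 and 20277 bp to the nearest protein-coding TSS. Of the constant loci 611, or 12.98%, lay over 50 kb from any TSS, against 15.3% and 18.4%. For 51.6% the nearest TSS belonged to a protein-coding gene, for 14.8% to a lincRNA, and for 11.7% to a processed pseudogene. The rule removes only the upstream side of promoters, and 462 constant loci (9.81%) overlapped the 2000 bp downstream of a TSS. The difference from E15.5-only loci was −0.930 points (−2.05 to 0.211), within counting error. That from E18.5-only loci, of which 21.9% overlapped, was −12.3 points (−14.7 to −10.2). RefSeq lists transcripts that GENCODE vM21 lacks, and 8.77% of the constant loci overlapped a RefSeq promoter, against 5.53% of E15.5-only and 3.89% of other distal loci. When only curated transcripts counted the shares were 1.27%, 0.635%, and 0.547%.

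The summits of the constant loci were richer in CpG than those of other distal loci. In the 200 bp around the strongest E15.5 summit the median GC content was 53%, against 51.5% in E15.5-only and 47% in other distal loci, and 46.75% in flanks of the constant loci 1000 bp away. A CpG-island-like window, here GC of at least 50% with an observed over expected CpG ratio of at least 0.6, was present in 834 constant loci (17.7%, 16.7% to 18.8%). The share was 8.14% in E15.5-only and 4.69% in other distal loci. CpG islands usually mark promoters, so the loci that reach into the 2000 bp downstream of a TSS were also set aside. The shares were then 16.0%, 6.01%, and 2.02%. Of the 834 loci, 17.3% overlapped a RefSeq promoter, against 6.94% of the other constant loci.

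**Figure D1:**
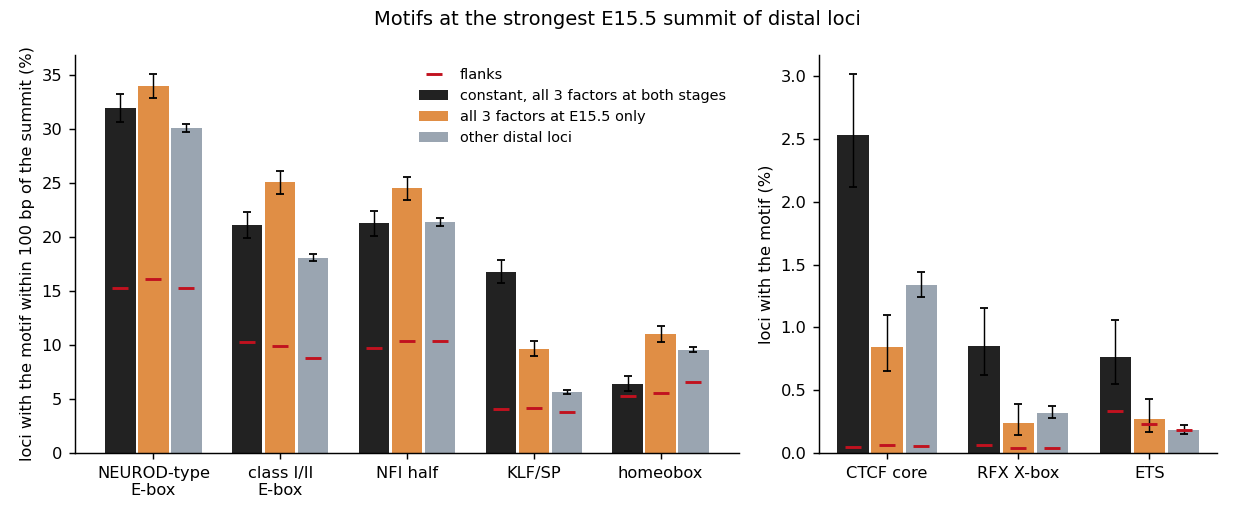
Share of distal loci with a motif within 100 bp of the strongest E15.5 summit, in percent, for constant loci (black), E15.5-only loci (orange), and other distal loci (grey), with 95% Wilson intervals as error bars and the share in flanks as red lines. The KLF/SP motif stood at 16.8% in constant loci against 9.69% and 5.70%, and the homeobox motif at 6.39% against 11.02% and 9.60%, though with lists of equal length its difference from other distal loci spanned 0. The CTCF core was at 2.53%, 0.846%, and 1.34%, an order that did not hold with lists of equal length.

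GGGCGG and the E-box CACGTG were more frequent in the constant loci than in both other classes under the 3 choices of peaks compared (all peaks, lists of equal length, and −log10 p of 15 or more), in the 200 bp around the strongest E15.5 summit, while the CTCF core was not. The other motifs run this way (the neuronal E-boxes and the NFI, homeobox, RFX, and ETS motifs) each changed direction or spanned 0 in at least 1 comparison, as given with each. GGGCGG was found in 16.8% (15.8% to 17.9%) of constant loci, 7.12 points more than in E15.5-only loci (5.84 to 8.41) and 11.1 points more than in other distal loci (10.0 to 12.2). All distal loci together held it in 6.91% of windows. Around a TR's own summit the gap depended on the TR. At E15.5 GGGCGG lay within 100 bp of the TCF7L2 summit in 16.99% of constant loci and 14.41% of distal loci with TCF7L2 outside them. For FOXP1 the shares were 17.16% and 6.22%, and for ARID1B 15.06% and 5.35%. At E18.5 they were 17.54% and 10.16% for TCF7L2, 16.27% and 10.93% for FOXP1, and 15.14% and 5.6997% for ARID1B. The part of the TRs present in the class differences was not tested. GC content differed between the classes too, as given above, and its part in the motif shares was not tested. Within the constant loci GGGCGG was found in 45.4% (42.1% to 48.8%) of the 834 CpG-island-like windows and in 10.6% (9.70% to 11.6%) of the others. In windows of the same kind, a split chosen after the values were seen, it was 6.30 points more frequent than in E15.5-only loci (0.937 to 11.6) among CpG-island-like windows and 3.56 points more frequent (2.41 to 4.75) among the others. With lists of equal length GGGCGG still differed by 7.63 points from E15.5-only (5.79 to 9.47) and by 6.07 points from other distal loci (4.62 to 7.63), and with peaks of −log10 p of 15 or more by 15.98 (11.6 to 20.5) and 24.2 points (20.2 to 28.5). The CTCF core, searched by name as a degenerate string of 12 letters, was found in 119 loci or 2.53%, which was 1.68 points more than in E15.5-only loci (1.20 to 2.21) and 1.19 points more than in other distal loci (0.766 to 1.69). The share in all distal loci was 1.37%, and in flanks of the constant loci 0.0531%. With lists of equal length the core was in only 12 of 2360 constant loci (0.508%), a difference of −0.107 points from E15.5-only loci (−0.594 to 0.349) and of −1.55 points from other distal loci (−1.85 to −1.12). With peaks of −log10 p of 15 or more it was in 6 of 486, and both differences spanned 0. The higher CTCF share of the constant loci thus did not hold for the strongest peaks, and against other distal loci it turned round. The RFX X-box, also searched by name, was found in 40 loci (0.850%, against 0.242% of E15.5-only loci and 0.354% of all distal loci). Both its differences lay above 0 with lists of equal length and spanned 0 with peaks of −log10 p of 15 or more, where 4 of 486 constant loci held it. The ETS motif CCGGAAGT was found in 36 loci (0.765%, against 0.272% and 0.236%). Its difference from E15.5-only loci spanned 0 with lists of equal length (0.314 points, −0.0764 to 0.726), where 13 of 2360 held it. CACGTG, the E-box of MYC, MAX, and USF proteins, was found in 5.08%, against 3.16% and 3.04%. Within the constant loci it was found in 9.71% of CpG-island-like windows and in 4.08% of the others. It was 2.38 points above E15.5-only and 2.11 points above other distal loci with lists of equal length, and 6.55 and 7.16 points above with peaks of −log10 p of 15 or more.

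E-boxes of the neuronal kind were common in the constant loci but no more so than in E15.5-only loci. CAGATG was found in 31.9% (30.6% to 33.3%), about the 30.6% of all distal loci, with 15.3% in the flanks. It differed from E15.5-only loci by −2.04 points (−3.79 to −0.285) and from other distal loci by 1.84 points (0.470 to 3.24). The difference from other distal loci was 6.81 points with lists of equal length (4.72 to 8.93) and −9.02 points with peaks of −log10 p of 15 or more (−13.0 to −4.76), so its direction depended on the peaks admitted. From E15.5-only loci the differences under these settings were −3.18 points (−6.08 to −0.272) and −14.6 points (−19.2 to −9.76). CAGCTG was found in 21.1% of constant, 25.1% of E15.5-only, and 19.02% of all distal loci. Its difference from E15.5-only loci spanned 0 with lists of equal length (−2.02 points, −4.58 to 0.531) and was −9.64 points with peaks of −log10 p of 15 or more (−13.6 to −5.28). From other distal loci it was 2.999 points with all peaks (1.81 to 4.23), 4.74 with lists of equal length (2.96 to 6.61), and −1.26 with peaks of −log10 p of 15 or more (−4.59 to 2.54). TTGGCA, an arm of the palindrome read by nuclear factor I, was found in 21.3%, against 24.5% and 21.7%, with 9.78% in the flanks. Against E15.5-only loci it was lower under the 3 choices, while against other distal loci it went from −0.139 points (−1.34 to 1.10) to 3.43 with lists of equal length (1.58 to 5.35) and −7.95 with peaks of −log10 p of 15 or more (−11.1 to −4.27). TAATTA, read by homeodomain factors such as LHX2 and the DLX proteins, was less frequent in constant loci at 6.39%, a difference of −4.62 points from E15.5-only loci (−5.64 to −3.58), and 9.51% of all distal loci held it. With lists of equal length that difference was −4.66 points (−6.48 to −2.86), while the one from other distal loci, −3.20 points with all peaks (−3.91 to −2.43), was −1.18 and spanned 0 (−2.30 to 0.0655). With peaks of −log10 p of 15 or more both were −6.06 and −6.08 points, with intervals below 0.

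Motifs of the profiled TRs themselves were no more frequent in constant loci than in all distal loci. TCAAAG, the core read by TCF/LEF factors, was found in 11.1% of the windows, against 13.3% in the flanks and 12.8% in all distal loci. TGTTTAC, a forkhead motif, was found in 3.27% (2.80% to 3.82%), against 2.47% in the flanks and 3.79% in all distal loci. Around TCF7L2's own E15.5 summits TCAAAG stood at 11.2%, and around FOXP1's own summits TGTTTAC stood at 3.12%, close to the 2.91% to 3.36% around the summits of the other TRs. AGGTGT, read by T-box factors such as TBR1, was found in 6.63%, below the 12.03% of the flanks. These are exact strings, and a weaker version of a motif is not counted.

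The differences from single-stage loci were not the same at the other stage. In windows around the strongest E18.5 summit the constant loci held the CTCF core in 1.61%, a difference of −0.645 points from E18.5-only loci with an interval that spans no difference (−1.58 to 0.109). CAGATG was 4.02 points more frequent in constant than in E18.5-only loci (1.36 to 6.60), where at E15.5 it had been less frequent than in E15.5-only loci. CAGCTG likewise was 2.87 points more frequent than in E18.5-only loci (0.536 to 5.10), after −3.96 points at E15.5 (−5.52 to −2.39). TAATTA stood at 6.18% in constant and 5.38% in E18.5-only loci, and that difference spanned 0 (0.798 points, −0.620 to 2.06). GGGCGG was more frequent in constant loci at both stages, by 4.57 points at E18.5 (2.54 to 6.48). Against the other distal loci and with all peaks, the intervals lay above 0 at both stages for the CTCF core, the RFX X-box, the ETS motif, GGGCGG, and the 3 E-boxes. They lay below 0 at both stages for the homeobox, T-box, TCF/LEF, and AP-1 (TGANTCA, read by FOS and JUN) motifs. At E15.5 several of these did not hold under the other choices of peaks, as given above. Which TR had the highest peak differed along with these classes. FOXP1 was the highest TR by −log10 p in 46.3% of constant and 26.7% of E15.5-only loci at E15.5, and its part in the motif differences was not tested apart from the values that follow.

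The constant loci divided by which TR stood highest. At E15.5 ARID1B was highest in 50.7%, FOXP1 in 46.3%, and TCF7L2 in 3.08%. Loci with ARID1B highest held CAGATG in 47.9% (45.9% to 49.9%) and TTGGCA in 30.3%, but the CTCF core in only 4 of 2385 (0.168%), and 4.61% had a CpG-island-like window. Loci with FOXP1 highest held CAGATG in 15.8% (14.3% to 17.4%), the CTCF core in 114 of 2178 (5.23%), GGGCGG in 25.3%, and a CpG-island-like window in 30.3%. In the 145 loci with TCF7L2 highest, TCAAAG reached 20% (14.3% to 27.2%). At E18.5 ARID1B was highest in 62.7%, TCF7L2 in 31.0%, and FOXP1 in 6.35%. A −log10 p grows with depth, and the less deep library of the FOXP1 list held 64.5 M reads at E15.5 and 26.3 M at E18.5. The change of these shares between the stages therefore cannot be told apart from depth. The loci with TCF7L2 highest at E18.5 held GGGCGG in 32.4% and a CpG-island-like window in 41.3%, and those with ARID1B highest held CAGATG in 41.5%.

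Around each TR's own summit the contrasts were much smaller. CAGATG lay within 100 bp of the ARID1B summit of E15.5 in 32.5% of the constant loci, of the FOXP1 summit in 30.2%, and of the TCF7L2 summit in 29.0%. Within the constant loci the CTCF core lay within 100 bp of the FOXP1 summit in 2.61% (2.19% to 3.11%), of the TCF7L2 summit in 1.68%, and of the ARID1B summit in 1.51% (1.20% to 1.90%) at E15.5. At E18.5 these were 2.57%, 1.68%, and 1.32%. In 63 loci the core was near the FOXP1 and not the ARID1B summit of E15.5, in 11 the reverse, and in 60 near both. Outside the constant loci, distal loci with the TR held the core near 1.94% of FOXP1, 0.735% of TCF7L2, and 0.411% of ARID1B summits at E15.5. At E18.5, 3.39% of the other FOXP1 summits held it (2.96% to 3.88%), above the constant loci. Anywhere within them, 169 constant loci (3.59%) held a core, and its median distance was 58 bp from the FOXP1, close to 100 bp from the TCF7L2, and 112 bp from the ARID1B summit of E15.5, with 70 and 120 bp for FOXP1 and ARID1B at E18.5.

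**Figure D2:**
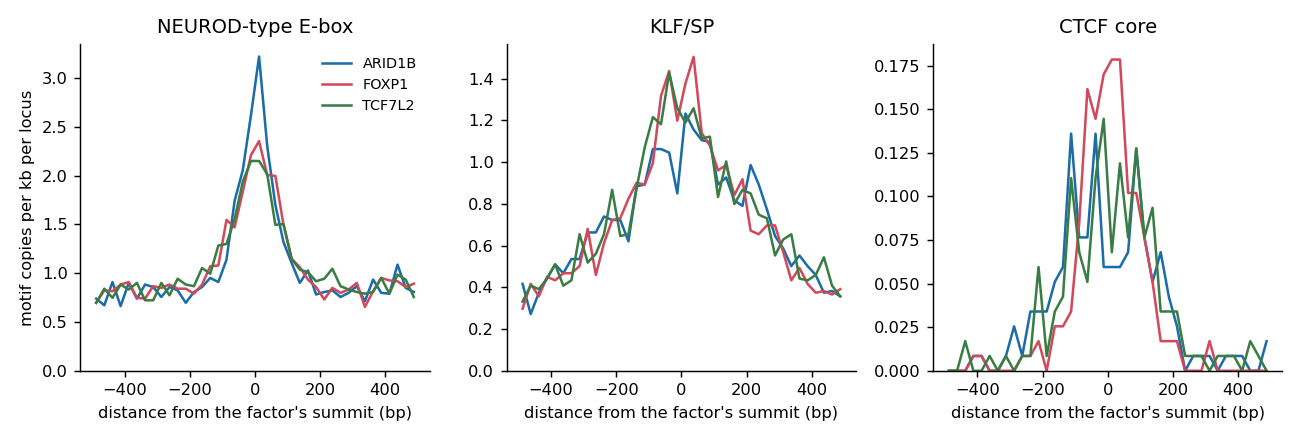
Copies of 3 motifs per kb and locus against the distance from each TR's E15.5 summit in bp, in bins of 25 bp, over the 4708 constant loci (blue ARID1B, red FOXP1, green TCF7L2). The E-box CAGATG reached 3.22 copies per kb beside the ARID1B summit and 2.35 and 2.15 beside those of FOXP1 and TCF7L2, against 0.807 in the bin farthest to the right of the ARID1B summit, while the CTCF core was highest around FOXP1 summits.

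Peak height went with these motifs in different ways for each TR. Where CAGATG lay within 100 bp of the ARID1B summit of E15.5 (1529 loci), the median ARID1B fold enrichment was 8.28, against 5.08 without it, and 8.98 against 5.47 at E18.5. In the same loci FOXP1 stood at 6.96 against 6.58 and TCF7L2 at 4.41 against 4.31 at E15.5. In the 169 loci with a CTCF core the ARID1B median was 3.93, against 5.97 in the others, while FOXP1 was at 6.45 against 6.71. In the loci with CpG-island-like windows ARID1B was lower at E15.5 (4.55 against 6.41), TCF7L2 higher (4.94 against 4.21), and FOXP1 7.02 against 6.58. At E18.5 ARID1B stood at 5.05 against 6.94, TCF7L2 at 5.25 against 4.49, and FOXP1 at 5.85 against 4.97. The FOXP1 calls of E18.5 largely set which loci were constant. Their part in the CpG and GGGCGG differences from E15.5-only loci was not tested. The E-box itself was scarce in those windows, at 13.1% (10.95% to 15.53%) against 36.0% (34.5% to 37.5%) in the other constant loci.

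**Figure D3:**
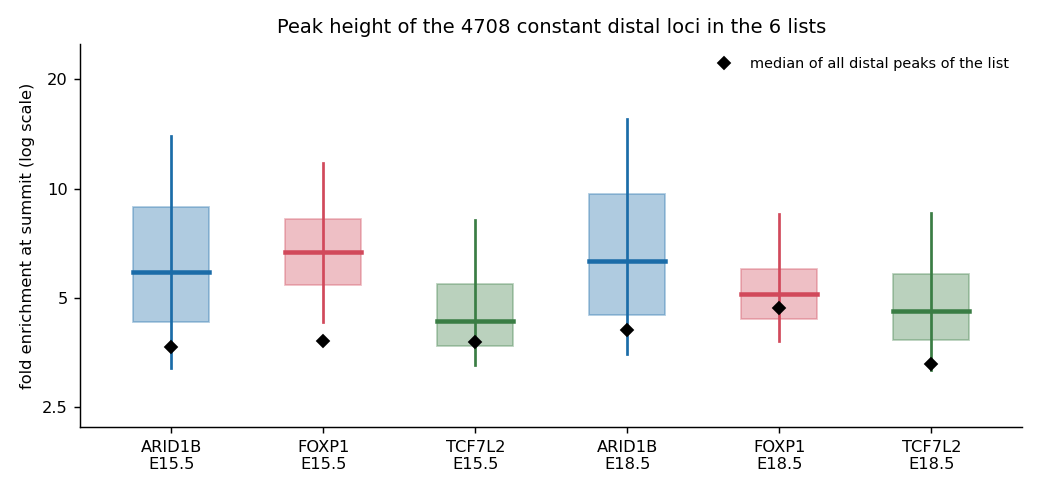
Fold enrichment at the summit of the 4708 constant loci in the 6 lists, on a log axis, with the median as a thick line, the quartiles as a box, and the 5th and 95th percentiles as whiskers, and the median of all distal peaks of the list as a black diamond. The medians of the constant loci ran from 4.31 (TCF7L2, E15.5) to 6.71 (FOXP1, E15.5), all above the median of their list.

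The heights of the peaks chose the members, since a peak had to be called, and are given as a description. The median fold enrichments of the constant loci at E15.5 were 5.88 for ARID1B, 6.71 for FOXP1, and 4.31 for TCF7L2, against 3.66, 3.797, and 3.79 over all distal peaks of the lists. At E18.5 they were 6.31, 5.12, and 4.60, against 4.07, 4.68, and 3.28. The E15.5-only loci had medians of 4.73, 4.56, and 3.68 at E15.5. Most of them lacked a FOXP1 peak at E18.5, as given above, so the rule splits these classes mainly by a FOXP1 call. Its part in the E15.5 heights, which were lower for all 3 TRs, was not tested. The median summit of a constant locus was built on 33 to 65 reads, which gives a counting error of 12.4% to 17.4% on a single height. This error is computed and not measured. The standard deviation of the log2 ratio of E18.5 to E15.5 was 0.231 for ARID1B and 0.224 for TCF7L2, below the 0.288 and 0.318 that counting error gives. For FOXP1 it was 0.356, against 0.323. The lowest peak that let a locus in had a fold enrichment of 2.504 for ARID1B, near Zc3h12d, 2.66 for FOXP1, near Rex1bd, and 2.64 for TCF7L2, near Exoc3, at E15.5. The lists of that stage ended at 2.33, 2.405, and 2.64, so for TCF7L2 the lowest member stood at the end of the list.

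The heights of a TR at both stages were set side by side, over loci that had to be called in both lists. Spearman's rho over the 4708 loci was 0.93 for ARID1B, 0.82 for TCF7L2, and 0.59 for FOXP1, whose E18.5 heights lay in a narrow range (quartiles 4.38 and 6.002) above the end of that list at 3.21. Between TRs at E15.5 it was 0.43 for ARID1B and TCF7L2, 0.50 for ARID1B and FOXP1, and 0.57 for FOXP1 and TCF7L2, and between ARID1B and FOXP1 at E18.5 only 0.14. These values describe loci, not samples. Loci of 2 lists may share open chromatin and base composition, and those of 1 stage may share tissue, which was not tested.

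**Figure D4:**
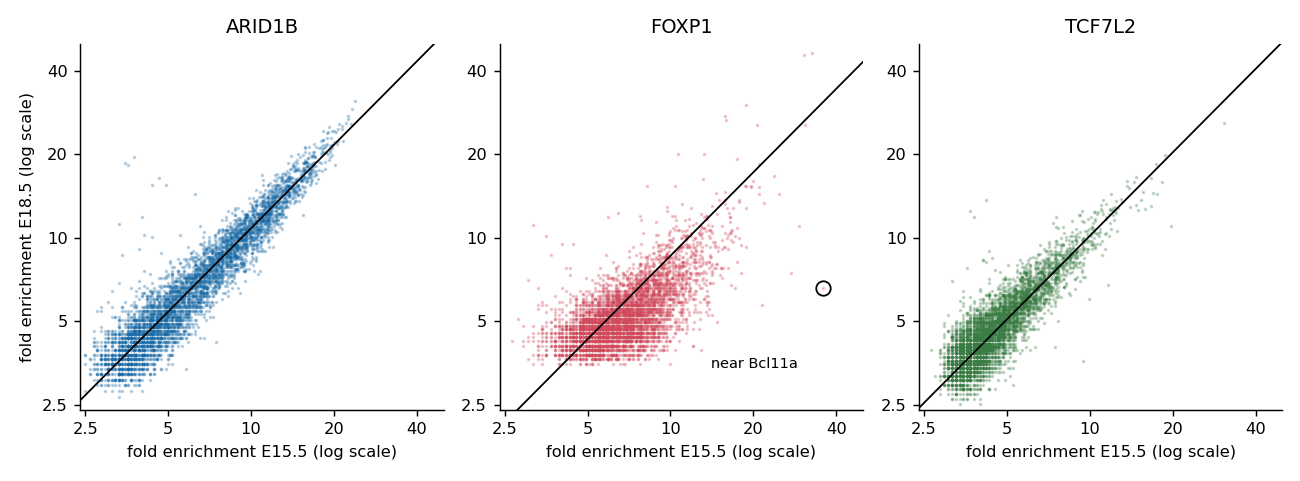
Fold enrichment at E18.5 against E15.5 for the 4708 constant loci, 1 panel per TR, both axes log, with the line of the median ratio over all distal loci with that TR at both stages. The median ratios of the constant loci were 1.08 for ARID1B, 0.778 for FOXP1, and 1.04 for TCF7L2, and the circled locus near Bcl11a fell from 35.7 to 6.59 for FOXP1.

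Between the stages the median height ratio was near 1 for ARID1B and TCF7L2 and lower for FOXP1. The median ratio of fold enrichment, E18.5 over E15.5, was 1.08 for ARID1B, 0.778 for FOXP1, and 1.04 for TCF7L2 in the constant loci, and 1.08, 0.862, and 1.02 over all distal loci with the TR at both stages. Ratios of fold enrichment carry the depth of the 2 lists. Relative to the median ratio over all distal loci, ARID1B was at least 1.5 times higher at E18.5 in 37 constant loci (0.786%, where 1.22% of all 37929 distal loci were) and at least 1.5 times lower in 17 (0.361%, where 0.762% were). TCF7L2 was higher in 33 (0.701%, where 0.808% were) and lower in 22 (0.467%, where 0.596% were). FOXP1 was higher in 89 (1.89%, where 8.73% were) and lower in 483 (10.3%, where 5.97% were). The rule used these peaks, and nothing is read from the counts.

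The loci with the most extreme ratios fell into 2 kinds. In 10 of 12 the highest summit of the TR at E18.5 was at least 606 bp from that of E15.5, and in some it lay outside the E15.5 locus, since the overlapping E18.5 locus can reach further. ARID1B rose from 3.48 to 18.7 near Wwox and from 3.75 to 19.6 near Atp2b2, a plasma membrane calcium pump, with summits 914 and 1295 bp apart. It fell from 7.48 to 4.21 near Cdk18 and from 5.79 to 3.37 near Smarcd3, a BAF subunit gene, with summits 606 and 1431 bp apart. TCF7L2 rose from 3.68 to 12.48 near Foxo6 and from 4.21 to 13.7 near Gse1, and fell from 9.42 to 3.61 near Maml3, a Notch coactivator, and from 7.44 to 4.05 near Etnk1. The 4 TCF7L2 summits moved by 664 to 2966 bp. FOXP1 rose from 3.16 to 11.2 near Ppp1r37 and from 3.54 to 10.1 near Dnah8, with summits 940 and 2040 bp apart. The E18.5 loci near Wwox and Dnah8 also covered a second constant locus of E15.5, where ARID1B had been at 16.7 and 20.2. Such ratios compare neighboring places, not the same place at 2 stages.

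The 2 lowest FOXP1 ratios were of the other kind, with summits of the stages 194 and 118 bp apart. The first was a locus of 3476 bp at chr11:24369774-24373249, intergenic and 229133 bp downstream of the TSS of Bcl11a, a zinc finger factor of cortical projection neurons and itself an autism-associated TR. FOXP1 stood at 35.7 there at E15.5, the highest FOXP1 value among the constant loci of that stage, and at 6.59 at E18.5, a ratio of 0.185. In the same locus ARID1B stood at 10.3 and 10.4 and TCF7L2 at 6.40 and 6.79, and its 6 summits spanned 1304 bp. The second lay 21775 bp downstream of the TSS of Il20rb, where FOXP1 went from 15.1 to 3.50, ARID1B from 4.90 to 6.73, and TCF7L2 from 3.68 to 3.61. With the summits of both stages at most 200 bp apart, a limit chosen after the values were seen, ratios ran from 0.642 to 1.97 for ARID1B, from 0.185 to 1.91 for FOXP1, and from 0.560 to 1.72 for TCF7L2.

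The distances between the summits of the 3 TRs and 2 stages are bounded by the rule, since the peaks had to overlap at each stage and the loci again between the stages, and are given as a description. The 6 summits of a constant locus spanned a median of 201 bp (quartiles 120 and 348), and in 49.7% (48.3% to 51.1%) they lay within 200 bp, the length to which the authors extended the reads. They lay within 100 bp in 17.9% and within 50 bp in 164 loci (3.48%). The median shift between the stages was 51 bp for ARID1B, 60 bp for FOXP1, and 63 bp for TCF7L2. The distance between the summits of 2 TRs had medians of 63 to 70 bp at E15.5 and of 75 to 78 bp at the later stage. The 3 summits of E15.5 spanned 115 bp in constant and 139 bp in E15.5-only loci, and those of E18.5 spanned 131.5 bp in constant and 146 bp in E18.5-only loci.

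**Figure D5:**
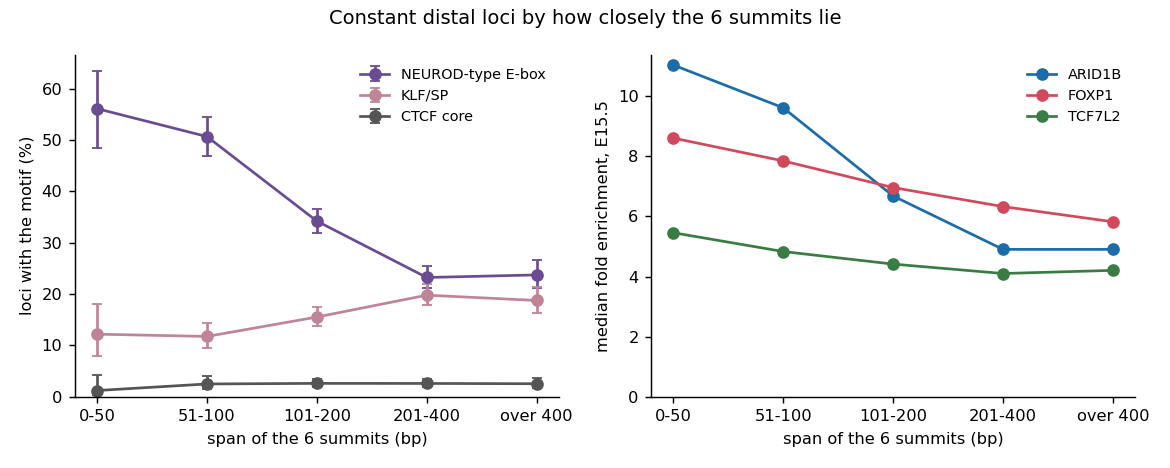
Constant loci in 5 bins by the span of their 6 summits in bp: left, share of loci with each motif within 100 bp of the strongest E15.5 summit, in percent, with 95% Wilson intervals, and right, median fold enrichment at E15.5 for each TR. CAGATG fell from 56.1% in the tightest to 23.7% in the widest bin and the ARID1B median from 11.04 to 4.90, while the CTCF core stayed at 1.22% to 2.61%.

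The tighter the summits, the more often the locus held an E-box and the higher ARID1B stood. CAGATG was found in 56.1% (48.4% to 63.5%) of the 164 loci with a span of at most 50 bp, in 50.7% at 51 to 100 bp, in 34.2% at 101 to 200 bp, in 23.2% at 201 to 400 bp, and in 23.7% beyond. From the tightest to the widest bin CAGCTG fell too, from 29.3% to 18.2%, and so did TTGGCA, from 27.4% to 17.1%, so the trend was not particular to E-boxes. GGGCGG went the other way, from 12.2% (8.03% to 18.1%) to 18.8% (16.4% to 21.4%), and the CTCF core showed no trend. The median ARID1B fold enrichment of E15.5 fell from 11.04 to 4.90 over the same bins, that of FOXP1 from 8.61 to 5.82, and that of TCF7L2 from 5.46 to 4.21. A high peak has a better placed summit, and the part of height in the trend was not tested.

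The 10 strongest constant loci, by the lowest percentile of −log10 p over the 6 lists, were of 2 forms. Of these, 6 were broad loci of 1580 to 5061 bp with summits spread over 88 to 276 bp, near Ezh2, Kcnq3, Gpr84, Ptma, Dnah8, and Btbd9. Ezh2 encodes the histone methyltransferase of Polycomb repressive complex 2, and the locus 53821 bp upstream of it, chr6:47646632-47651692, had the highest FOXP1 value of any constant locus at E18.5. FOXP1 went from 32.7 to 46.5 there between the stages, with ARID1B at 13.4 and 13.5, and TCF7L2 at 17.4 and 18.51. It was thus one of the loci where FOXP1 was higher at E18.5. Kcnq3 encodes a neuronal potassium channel subunit, and its intronic locus had ARID1B at 18.3 and 22.4, FOXP1 at 18.7 and 12.8, and TCF7L2 at 8.49 and 8.32.

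The other 4 were short loci of 498 to 1054 bp with all 6 summits within 15 to 40 bp, near Axin2, Rpusd4, Ly6c2, and Kctd16. The strongest of all was 68223 bp downstream of the TSS of Axin2, a feedback inhibitor of Wnt signaling. In its 648 bp the fold enrichments were 17.4 and 16.3 for ARID1B at the earlier and the later stage, 20.9 and 18.51 for FOXP1, and 30.7 and 26.1 for TCF7L2, with a span of 15 bp. The window of the Rpusd4 locus was 100% soft-masked repeat sequence. A closer look after these values were seen found 22 constant loci whose 6 summits lay within 20 bp, with a median length of 641.5 bp. TCF7L2 was the highest of the 3 by fold enrichment at both stages in 8 of them, against 132 of all constant loci (2.80%), and none of those 8 had CAGATG in the window. In 5 of the 22 the window was over 50% soft-masked, against 56 of all constant loci (1.19%). A pair of them, chr2:98663662-98664222 and chr2:98664893-98665320 beside the gene models Gm10801 and Gm10800, each had 6 summits within 4 bp. Others, near Wwox, Slc24a5, Osbpl5, Sp5, and Dock1, had ARID1B highest at both stages, with at most 24.5% of the window soft-masked. The sources used here give no list of excluded repeat regions, and what sets the short loci apart was not tested.

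The constant loci were counted by gene. By the nearest protein-coding TSS they belonged to 2973 of 20780 autosomal protein-coding genes (14.3%), and 7433 genes (35.8%) had one within 100 kb of a TSS. Of all E15.5 distal loci, 7.28% were constant, and genes with more distal loci have more of both kinds. Genes with many were Gse1 with 19 of its 120 distal loci, Zfp608 with 13 of 152, Cwc22 with 12 of 58, Ttc28 with 12 of 79, Auts2 with 11 of 169, Cmpk2 with 10 of 32, Sorl1 with 10 of 63, and Gm26897 with 10 of 84. Behind them, Btbd9, Pde4d, Dnah8, and Tenm4 had 9 each. The shares of Auts2 (6.51%) and of Tenm4 (6.34% of 142) lay below the 7.28%. Auts2 is a neurodevelopmental gene associated with autism. Among the 19 loci of Gse1, ARID1B fold enrichments ran from 3.30 to 13.97 at E15.5, and the median went from 6.41 to 9.26 between the stages. The TCF7L2 median went from 5.46 to 7.77 and that of FOXP1 from 6.71 to 4.68, and the overlapping E18.5 locus can supply a summit from elsewhere, as in the Gse1 locus above, where summits of the stages lay 1417 to 1820 bp apart. The 9 loci of Tenm4, a teneurin adhesion gene, had ARID1B medians of 9.26 and 11.2 at the earlier and the later stage.

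In windows of 100 kb, 43.4% of the constant loci (2043) shared their window with another one. Windows with 8 lay at Neurod2, Ppp1r1b, and Stard3 on chromosome 11, at Btbd9 on chromosome 17, at 1700001O22Rik on chromosome 2, and at Nfix on chromosome 8. Neurod2 encodes one of the bHLH factors of cortical excitatory neurons. The 3 longest constant loci were of 14152 bp at chr2:77981705-77995856 and 6863 bp at chr2:78020365-78027227, both upstream of Cwc22, and of 6985 bp at chr11:119052188-119059172 upstream of Cbx8, a Polycomb gene. Per Mb, chromosome 11 held most (3.01) and chromosome 14 fewest (1.28).

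For lists of cortical and other genes, constant loci were counted as the nearest protein-coding gene's own, and set against the same 7.28%. Among upper-layer neuron genes, 9 of 12 had at least 1, and 7.61% of their 394 distal loci were constant. Mef2c had 6 of 57 and Pou3f3 6 of 82. Among deep-layer and subplate genes it was 7 of 13 and 5.94%, with 4 of 38 at Bcl11b, 4 of 86 at Sox5, and 4 of 46 at Tle4. In the strongest locus of Tle4, a corepressor gene, ARID1B went from 18.4 to 21.0 between the stages. Among genes of radial glia and intermediate progenitors it was 12 of 17 and 9.49%, with 4 of 56 at Sox9 and 4 of 23 at Ptprz1. Among neuronal bHLH and E-protein genes it was 10 of 13 and 7.46%, with 4 of 13 at Neurod2, 4 of 125 at Tcf4, and 3 of 16 at Neurod6. Nuclear factor I genes had 7 of 33 at Nfix, 6 of 111 at Nfib, 5 of 53 at Nfia, and 0 of 16 at Nfic, or 8.45% of 213 distal loci.

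Among Wnt and TCF/LEF genes, 12 of 20 had at least 1 constant locus (8.19% of 232 distal loci), with 4 of 18 at Wnt7b, a ligand, 2 of 10 at Wnt7a, 2 of 20 at Nkd1, 2 of 7 at Dkk3, and 2 of 31 at Tcf7l2. The 12 include Axin2, whose only constant locus is the short one with 6 summits within 15 bp given above. Over the loci of Wnt7b, the highest E15.5 values were 8.73 for ARID1B, 13.6 for TCF7L2, and, in a different locus, 16.5 for FOXP1. Among BAF genes 6 of 26 had one (7.69% of 156 distal loci), led by Arid1b with 5 of 55. Among interneuron genes it was 8 of 16 (6.08% of 181), and among axon guidance and adhesion genes 15 of 21 but 4.24% of 802 distal loci. Immediate early genes, which neurons switch on with activity, had one at 7 of 10, and 9 of their 50 distal loci (18%) were constant, with 2 of 6 at Fos and 2 of 10 at Egr3. For genes of other cells and tissues, 2 of 9 for oligodendrocytes and astrocytes had one (5% of 60 distal loci), 1 of 12 for endothelium and microglia (2.94% of 34), 2 of 14 for liver (5.88% of 34), and 1 of 10 for muscle (1 of 8 distal loci), where 14.3% of all protein-coding genes had one. Of the study's autism-associated genes 47 (46.1%) had one, and 103 of their 1275 distal loci (8.08%) were constant, with 8 of 72 at Celf4, 8 of 66 at Myt1l, and 6 of 31 at Tbl1xr1. Long genes in wide intergenic regions collect more distal loci, and the lists differ in length. The median gene length was 94.7 kb for the autism-associated list and 17.6 kb over all protein-coding genes.

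Around the genes of the 5 autism-associated TRs of the study, constant loci lay within 500 kb of each, 7 of Arid1b, 7 of Tbr1, 5 of Foxp1, 3 of Bcl11a, and 2 of Tcf7l2. Of all autosomal protein-coding genes 75.1% had one at that distance, so nothing is read from these counts. The strongest at Tcf7l2 was an intronic locus 12586 bp upstream of the nearest TSS, chr19:55880191-55881340, with CAGATG in the window and summits within 35 bp. ARID1B stood there at 18.8 and 20.5, FOXP1 at 13.4 and 8.21, and TCF7L2 at 8.69 and 8.21 at E15.5 and E18.5. At Foxp1 the strongest was chr6:99968383-99971028, nearest to Prok2, with ARID1B at 16.9 and 20.3, FOXP1 at 14.2 and 7.47, and TCF7L2 at 8.59 and 8.76. At Tbr1 a locus 12318 bp downstream of the TSS of Tank had ARID1B at 12.8 and 12.3, FOXP1 at 12.53 and 7.47, and TCF7L2 at 10.1 and 9.52, with an AGGTGT in the window. A locus 6680 bp downstream of the TSS of Tbr1 had FOXP1 at 21.5 and then 5.71, but its E18.5 summit lay 3104 bp away in a locus shared with its neighbor. At Arid1b FOXP1 went from 18.9 to 9.24 in a locus 86163 bp upstream with a GC content of 82%, while ARID1B stood at 6.86 and 7.29. A lower FOXP1 value at E18.5 was common to most constant loci, with a median ratio of 0.778 as given above, and 2 of the 5 loci near Foxp1 had FOXP1 ratios of 1.03 and 1.01.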

How the data were processed

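The 6 deposited peak lists come from ChIP-seq of wild-type cortex with antibodies to the 3 TRs, 1 list per TR and stage (E15.5 or E18.5), taken to be those for which the authors merged 2 biological replicates, although each is attached to the replicate 1 sample. Per the labels and the study's methods, chromatin was fixed in formaldehyde and sheared, and 50-bp single reads were aligned by the authors to GRCm38 (mm10) with bwa mem (0.7.15) and kept at a mapping quality of 30. The authors called peaks with MACS2 (2.2.7) against the matched input at a q threshold of 0.01, with no model, reads extended to 200 bp, and a constant genome-wide background. The treatment of duplicate reads and any exclusion list are not stated in the labels or methods. The deposited values are, per peak, a fold enrichment (ratio of reads to background at the summit), a −log10 p and a −log10 q as MACS2 wrote them for the authors, and a display score, which follows from the q-value in the authors' files and was not used, beside the offset of the summit.

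Fold enrichment and −log10 p together give back the background and, from it, the reads of the smaller library (26.3 to 80.7 M), and the number of reads at a summit gives its counting error. Loci were built with Python 3.11.15 (numpy 2.4.6, scipy 1.17.1, pandas 2.3.3) from the lists and GENCODE vM21, where the study used a later release. Only peaks on chromosomes 1 to 19 were used, and a single shared base counted as overlap. Motifs were searched on both strands in 200 bp around the summit with the highest −log10 p of the stage, and in flanks 1000 bp away, in the RefSeq sequence of GRCm38.p6. Shares carry 95% Wilson and differences 95% Newcombe intervals. Motifs took no part in the choice of loci. The overlap rule bounds the distances between summits, the promoter rule bears on place and TSS distance, and the peak calls that chose the loci bear on heights and stage ratios. The lists used here give no spread between replicates, so no test was run. Locus building, the recovery of reads, and the motif search were tested on simulated data.

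The loci and the gene lists were chosen with earlier results of these data known. Named loci were the 10 with the highest minimum percentile of −log10 p over the 6 lists, those within 500 kb of the genes of the study's 5 TRs, the 2 highest and 2 lowest stage ratios per TR, the 2 strongest with each described motif, and the 3 longest. Named genes were the 10 nearest to most loci with their ties, up to 3 leading genes per list with their ties, and those in the 100-kb windows with most loci. Genes and loci named outside this rule were chosen after their values were seen. BCL11A and TBR1 were not analysed here. Some genes that the rule names are not reported here.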

Additional observations from a re-analysis of the deposited data

Results flagged for a closer look

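The 6 peak lists stand for 1 pooled sample each, so no group held enough samples to look for outlying ones.

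For several motifs the difference between constant loci and loci with all 3 TRs at a single stage had opposite signs at the 2 stages. For the CTCF core, constant minus E15.5-only loci was 1.68 percentage points at E15.5 (1.20 to 2.21), and constant minus E18.5-only loci was −0.645 points at E18.5 (−1.58 to 0.109), an interval that includes 0. For CAGATG the same differences were −2.04 points (−3.79 to −0.285) and 4.02 points (1.36 to 6.60), and for CAGCTG they were −3.96 points (−5.52 to −2.39) and 2.87 points (0.536 to 5.10). For TAATTA and TTGGCA they went from −4.62 to 0.798 points and from −3.23 to 1.71 points, with E18.5 intervals that include 0. The signs also differed for the forkhead, SOX, POU, and AP-1 motifs, with intervals that include 0 at both stages. GGGCGG had the same sign at both stages (7.12 and 4.57 points), as did CACGTG (1.92 and 1.30 points). The difference between the stages was not tested. The single-stage loci of E15.5 mostly lacked a FOXP1 peak at the other stage and those of E18.5 mostly a TCF7L2 peak, as given above, so the classes compared are not the same kind at both stages.

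Peaks on the sex chromosomes took no part in the comparisons. By the same rule, 30 loci on chromosome X and 4 on chromosome Y had all 3 TRs at both stages.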

How the results depend on the processing

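The rule was rerun under 5 alternatives, beside others for the motif window, the summit distance, and the TSS, and 2 alternatives were added after seeing the data, the exclusion of RefSeq promoters and the removal of the 22 loci with coincident summits. Of 92 recomputed values, 51 stayed within the interval of the main value or, for the number of loci, within 1.5 times of it. With only the peaks that reached a −log10 p of 15, 486 loci remained, 23.8% of those with all 3 TRs, and the shares were 1.23% for the CTCF core, 29.6% for CAGATG, 19.5% for CAGCTG, and 65.4% for 6 summits within 200 bp, with a median TSS distance of 10240.5 bp and stage ratios of 1.097, 0.762, and 1.0437. With each list cut to the strongest 24526 peaks, the size of the shortest, there were 2360 loci, 52.8% of those with all 3 TRs, and the shares were 0.508% for the CTCF core, 41.4% for CAGATG, 24.4% for CAGCTG, 6.48% downstream of a TSS, and 61.6% within 200 bp, with a TSS distance of 15241 bp and ratios of 0.707 for FOXP1 and 1.0434 for TCF7L2. For 9 motifs the differences between the classes were also taken under these 2 settings, after seeing the data, and lost or turned calls stand beside the motif results above. With promoters of 2000 bp on either side, 0% lay downstream, the TSS distance was 14411.5 bp, 51.1% lay within 200 bp, and the FOXP1 ratio was 0.772. With promoters of protein-coding genes only, 43.3% of loci with all 3 TRs were constant, CAGATG was at 29.96%, the TSS distance was 9855 bp, 18.46% lay downstream, and 48.0% lay within 200 bp. With RefSeq promoters also excluded, 40.7% were constant. The CTCF core was at 1.47% in 100 bp and 3.23% in 400 bp windows, at 1.51% around the ARID1B summit, 1.61% around the strongest E18.5 summit, and 5.42% as a string of 20 letters with at most 4 mismatches. CAGATG was at 21.2% and 42.7% and CAGCTG at 12.49% and 31.2% in the narrower and wider window. Summits lay within 100 bp in 17.9%, and the median distance to a protein-coding TSS was 24084 bp. The causes were not tested, beyond the fewer peaks or letters that the settings themselves admit.

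No paired analysis was possible because there is 1 list per TR and stage, taken to merge the replicates, for which reason leaving out a replicate was not possible either. Loci without a FOXP1 peak at E18.5, where the less deep library held 26.3 M reads, are not shown to be unbound. Repeat regions, mixed cell types, and shared fragments of neighboring summits limit all shares given.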
